A study of Homo sapiens with 3 samples.

Results

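Shelterin is the protein complex that covers the ends of human chromosomes, and the 6 genes that encode it (TERF1, TERF2, POT1, ACD, TINF2 and TERF2IP) were examined here for binding of the transcription factor MYC. The regions belonging to them were taken as all rows of the deposited MYC peak lists whose summit, the position of highest signal, lay within 5 kb of the start site of one of the genes on the human genome build hg19. The rule gave 6 of the 31378 regions in the list from untreated cells and 6 of the 27614 regions in the list from cells given MST-312, exactly 1 per gene in each list. The rule used position alone and no signal value.

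The lists come from sequencing of DNA fragments pulled down with an antibody to MYC (ChIP-seq). P493 is a human B cell line in which the MYC gene can be switched off. MYC was precipitated with the N262 antibody in both conditions, and the groups are P493 cells with no treatment and P493 cells given MST-312, a small-molecule inhibitor of telomerase. The sources used here give neither the dose and duration of MST-312 nor whether the MYC switch was used. The series holds 3 samples, the third being an input library of untreated cells that served as the background for both lists. Each condition is 1 library, so the differences below cannot be set against a spread between replicates and carry no p-value. All 95% intervals are exact intervals that treat fragments as independent counts. They cover counting error only, although duplicates of a molecule cannot be recognised without molecular identifiers. They also take no account of the summit being chosen as the highest point of its region.

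Within the complex, TERF1 and TERF2 bind the double-stranded telomere repeat and POT1 binds its single-stranded end. TINF2 joins these parts, ACD (also called TPP1) ties POT1 to TINF2 and brings telomerase to the chromosome end, and TERF2IP (also called RAP1) is carried by TERF2. The complex keeps chromosome ends from being handled as DNA breaks. MYC binds DNA as a dimer with MAX, preferring CACGTG, one of the E-boxes of the form CANNTG. It is found mostly at active, CpG-rich promoters.

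Promoter sequences of the genes are shown for the E-boxes and CpG pairs near their RefSeq start sites. RefSeq promoters on GRCh38.p14, each from 250 bases before to 50 bases after a start site, were matched by symbol for 4 of the 6 genes. They are POT1 (chr7:124929776-124930075, minus strand), ACD (chr16:67660211-67660510, minus strand), TINF2 (chr14:24242625-24242924, minus strand, the outermost of its 2 entries) and TERF2IP (chr16:75647523-75647822, plus strand). They are printed 5′ to 3′ along the gene, and the capitals mark every CANNTG match, a motif that reads the same way on both strands.
POT1: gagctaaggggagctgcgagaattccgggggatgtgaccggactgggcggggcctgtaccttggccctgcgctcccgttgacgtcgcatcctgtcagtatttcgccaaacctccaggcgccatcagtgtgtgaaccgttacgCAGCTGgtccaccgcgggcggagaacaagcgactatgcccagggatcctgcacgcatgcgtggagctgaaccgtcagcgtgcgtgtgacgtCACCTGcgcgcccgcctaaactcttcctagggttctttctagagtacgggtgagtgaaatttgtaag
ACD: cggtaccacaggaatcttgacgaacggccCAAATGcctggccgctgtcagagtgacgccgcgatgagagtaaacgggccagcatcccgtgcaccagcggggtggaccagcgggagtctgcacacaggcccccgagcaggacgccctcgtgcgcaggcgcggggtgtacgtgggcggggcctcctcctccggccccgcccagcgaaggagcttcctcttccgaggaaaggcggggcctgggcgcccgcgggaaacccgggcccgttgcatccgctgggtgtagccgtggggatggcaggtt
TINF2: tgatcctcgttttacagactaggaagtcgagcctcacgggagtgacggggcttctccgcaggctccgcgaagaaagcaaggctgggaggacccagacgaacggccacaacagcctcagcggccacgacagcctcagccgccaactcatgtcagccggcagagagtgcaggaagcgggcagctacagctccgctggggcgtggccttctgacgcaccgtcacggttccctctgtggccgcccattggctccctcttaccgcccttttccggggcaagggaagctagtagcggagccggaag
TERF2IP: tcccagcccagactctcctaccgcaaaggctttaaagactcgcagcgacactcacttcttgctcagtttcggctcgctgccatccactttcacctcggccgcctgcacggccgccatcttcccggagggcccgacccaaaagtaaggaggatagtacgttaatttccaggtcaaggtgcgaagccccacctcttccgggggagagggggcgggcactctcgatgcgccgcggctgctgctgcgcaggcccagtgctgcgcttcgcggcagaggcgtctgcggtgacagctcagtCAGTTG

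None of the 4 promoters held CACGTG, which was present in 7.26% of all 35116 RefSeq promoters of this length. CANNTG, which includes CACGTG, occurred in 68.7% of all promoters. POT1 held 2 such matches, CAGCTG starting 108 bases upstream of the start site and CACCTG starting 17 bases upstream. ACD held CAAATG 221 bases upstream, TERF2IP held CAGTTG starting 44 bases downstream, and TINF2 held none. CpG pairs numbered 26 in POT1, 31 in ACD, 24 in TINF2 and 25 in TERF2IP. All 4 were above the median of 14 over all promoters (quartiles 4 and 28), and ACD alone was above the upper quartile. These matches describe letters in the window only. The RefSeq start sites were not placed on hg19, so motif positions and summit positions are not set against each other.

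Every shelterin gene had its start site inside a listed MYC region, in untreated cells and after MST-312. The share of hg19 bases inside such regions was not computed. Each gene also had a summit within 5 kb of its start site in both lists. For this wider measure, 8.30% of hg19 bases lay within 5 kb of an untreated summit and 7.65% within 5 kb of an MST-312 summit. These shares count all bases alike and make no allowance for MYC regions gathering at promoters, and the same share over all start sites was not computed, since no hg19 annotation was used here. The summits lay close to the start sites, from 6 bp (POT1) to 208 bp (TERF2IP) away in the untreated list and from 19 bp (POT1) to 275 bp (TINF2) away in the MST-312 list. The 5 kb limit therefore decided nothing near its edge. The nearest region left out was an untreated region 5.89 kb from the ACD start site.

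In the RefSeq annotation 3 of the 4 matched genes have the start site of an opposite-strand gene within 5 kb. The share of all promoters with such a neighbour is not given here, and TERF1 and TERF2 were not checked. The start of TERF2IP lies within 5 kb of that of KARS1, which encodes lysyl-tRNA synthetase, and the start of ACD within 5 kb of that of PARD6A, a cell polarity gene. POT1 is paired in the same way with the long non-coding RNA gene POT1-AS1, while TINF2 has no such neighbour in the table. A region at such a start site cannot be assigned to one of the 2 genes. For these 3 genes the values below describe the region and not a single gene.

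The strength of MYC signal is given as the summit pileup, the number of fragments extended to 200 bp that cover the summit. Pileups were unscaled in both lists, and the MST-312 library kept 55400354 tags against 60805153 in the untreated library (8.89% fewer). Its redundant rate, the share of tags removed as duplicates, was 0.49 against 0.24. Both features of the MST-312 library move with the lower pileups described below, and the part of the redundant rate in them was not tested. Each gene is described in the order of its role in the complex.

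TERF2, a binder of double-stranded repeats, had the second strongest region of the complex. On chromosome 16 it ran from 69418875 to 69420150 in the untreated list, with a pileup of 151 fragments (95% interval 128 to 177). In the MST-312 list it ran from 69419418 to 69420135, with a pileup of 100 (81.4 to 122). The MST-312 value was the lower one, at 0.662 times the untreated value (0.509 to 0.858). Scaled to kept tags the ratio was 0.727 (0.559 to 0.942). The 2 intervals of the unscaled pileups did not overlap, and how often this holds over the whole lists was not computed. The summits lay 45 bp apart, 67 bp and 22 bp below the start site in chromosome coordinates.

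TERF1, the other double-strand binder, had the weakest region of the 6 in both lists. On chromosome 8 it covered 73920902 to 73921693 in untreated cells, with a pileup of 63 fragments (48.4 to 80.6), and 73920978 to 73921648 after MST-312, with a pileup of 39 (27.7 to 53.3). The ratio was 0.619 (0.404 to 0.937), and 0.679 (0.444 to 1.03) scaled to kept tags. The separate intervals of the 2 pileups overlapped. Its MST-312 call was close to the lowest strength that the list holds, with a −log10 q of 13.6 against a lowest listed value of 13.02, and 7.43% of MST-312 regions had a lower one. The summits lay 245 bp apart, 36 bp below the start site before and 209 bp above it after treatment. The ratio thus compares 2 different positions of the region.

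POT1, the single-strand binder, had the pileup that differed least between the lists. Its region on chromosome 7 ran from 124569366 to 124570327 with 78 fragments at the untreated summit (61.7 to 97.3) and from 124569727 to 124570212 with 76 at the MST-312 summit (59.9 to 95.1). The intervals overlapped almost fully, and the ratio was 0.974 (0.701 to 1.35). This interval spans values well below and above 1, so the data do not show that the signal stayed the same. Per 1000000 kept tags, the POT1 pileups were 1.28 and 1.37, with the MST-312 value the higher one. POT1 was also the only one of the 6 with a higher fold enrichment over the local input background in the MST-312 list, 6.20 against 5.45. Its summits were 25 bp apart, the least of the 6.

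ACD, the partner of POT1, had a weak region that stayed listed. On chromosome 16 it spanned 67693874 to 67695097 in untreated cells, where 68 fragments covered the summit (52.8 to 86.2), and 67694141 to 67695086 after MST-312, where 43 did (31.1 to 57.9). The ratio was 0.632 (0.421 to 0.940), and 0.694 (0.462 to 1.03) scaled to kept tags. In the MST-312 list its −log10 q was 15.0, and 20.9% of the regions in that list had a lower one. Both summits lay upstream of the start site, at 50 bp and 109 bp, which is 59 bp apart.

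TINF2, the gene for the central linker, showed a lower, wider and displaced region after MST-312. On chromosome 14 the untreated region covered 24711185 to 24712404 with a pileup of 104 fragments (85.0 to 126), and the MST-312 region covered 24711409 to 24712815 with 53 (39.7 to 69.3). The intervals of the unscaled pileups did not overlap. The ratio was 0.510 (0.359 to 0.716), and 0.559 (0.394 to 0.786) scaled to kept tags. The summit lay 60 bp upstream of the start site in untreated cells and 275 bp downstream of it after MST-312, 335 bp apart. One-to-one pairs, each of 1 untreated region overlapping 1 MST-312 region, numbered 15265 over the genome. Of these, 92.1% had summits closer together than those of TINF2, and 88.7% had summits closer than those of TERF1.

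TERF2IP, which encodes the TERF2-bound subunit, had the strongest region and the lowest ratio. It ran on chromosome 16 from 75681063 to 75682880 with a pileup of 291 fragments (259 to 326) in the untreated list and from 75681133 to 75682342 with 132 (110 to 157) in the MST-312 list. The untreated value was far above the other shelterin genes, and 97.4% of all untreated regions had a lower pileup. The ratio was 0.454 (0.366 to 0.559), a 2.2-fold lower pileup after MST-312. Scaled to kept tags the ratio was 0.498 (0.402 to 0.614). The authors' fold enrichment was 27.4 without and 11.5 with MST-312. The summits lay 29 bp apart, 208 bp and 179 bp upstream of the start site.

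**Figure D1:**
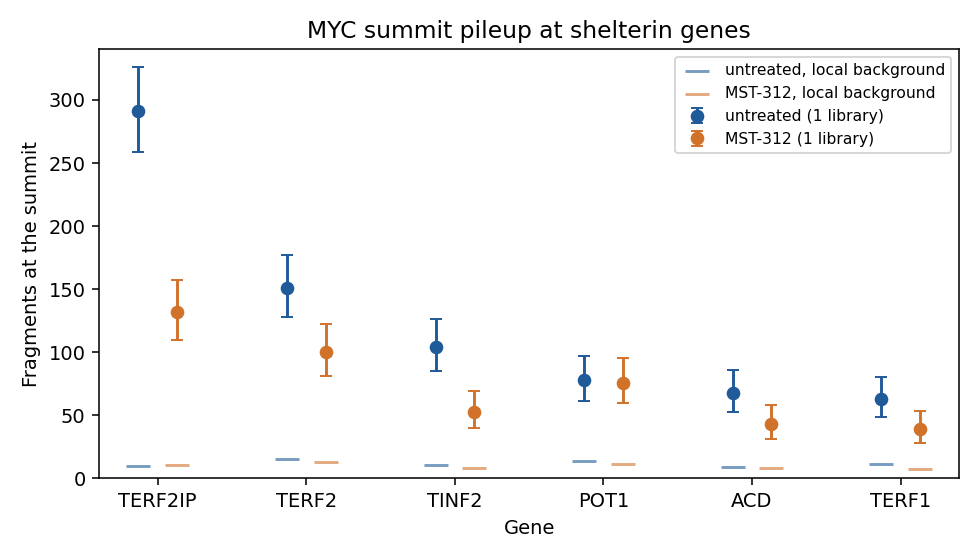
Summit pileup in fragments (vertical axis) for each shelterin gene in the untreated (blue) and MST-312 (orange) list, 1 library each; bars are exact Poisson 95% intervals for counting error and short lines are the local input background. TERF2IP goes from 291 to 132 fragments, while POT1 stands at 78 and 76.

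The local background, worked back from the pileup and the fold enrichment, was below the signal at all 6 genes but above that of most pairs at the median. It ranged from 8.93 fragments (ACD) to 15.4 (TERF2) in the untreated list and from 7.38 (TERF1) to 13.2 (TERF2) in the MST-312 list. The median over the 6 genes was 11.1 untreated and 9.49 with MST-312, against 8.68 and 7.91 over all pairs. Both lists use the same input, so a gene's 2 values differ by the scaling to each library and by the summit position. TERF1 had 11.6 and 7.38 at its displaced summits, and its fold enrichment was 5.09 and 4.77. The fold enrichment ratio of TERF1 was therefore 0.938, against 0.619 for the pileup.

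The order of the 6 genes was nearly the same in both lists. In untreated cells the pileups ran from TERF2IP (291) over TERF2 (151), TINF2 (104), POT1 (78) and ACD (68) to TERF1 (63). The first 2 of the 5 steps between neighbours exceeded counting error, TERF2IP over TERF2 at 1.93 (1.58 to 2.36) and TERF2 over TINF2 at 1.45 (1.12 to 1.88). After MST-312 the order was TERF2IP (132), TERF2 (100), POT1 (76), TINF2 (53), ACD (43) and TERF1 (39), so POT1 and TINF2 changed places. There 1 of the 5 steps exceeded counting error, TERF2IP over TERF2 at 1.32 (1.01 to 1.73). All 6 genes were above the median pileup of the untreated list, which was 62, and 4 were above the MST-312 median of 50. ACD and TERF1 were the exceptions.

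Shelterin regions had partners in both lists and lower pileups after MST-312, as most paired regions did. Each of the 6 untreated regions overlapped exactly 1 MST-312 region by at least 1 bp. At least 1 partner, a looser measure, was found for 53.6% of all untreated regions and 63.3% of all MST-312 regions. By the stricter measure, 15265 of the 31378 untreated regions were in one-to-one pairs. These shares cover the whole lists, weak regions included, whereas all 6 genes were above the median untreated pileup. The pileup was lower in the MST-312 list for 6 of 6 genes, against 85.7% of the 15265 pairs. Scaled to kept tags it was lower for 5 of 6, against 79.0% of pairs. The median ratio of the 6 genes was 0.626, and that of all pairs was 0.691 (quartiles 0.565 and 0.869). The median of the genes lay within the quartiles of all pairs. All 6 belong to the pairs, which leave out sites listed once, so a low untreated region enters them only if its MST-312 signal stayed high enough to be listed.

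Size thresholds separated the genes more than the direction did. The fold thresholds used here were set after the values were seen. A pileup at least 1.5-fold lower after MST-312 was found for 5 genes, all except POT1, against 45.9% of all pairs. Of these genes, TERF2 was the closest to the threshold, at 1.51-fold. Scaled to kept tags, the count was 2, TINF2 and TERF2IP, against 33.6% of pairs. The ratios of TERF2 (0.727), ACD (0.694) and TERF1 (0.679) then fell short of the threshold, and the intervals of ACD and TERF1 reached 1.03. A pileup at least 2-fold lower was found for TERF2IP alone, against 14.0% of pairs. After scaling to kept tags it was again found for TERF2IP alone, at 0.498 (0.402 to 0.614), against 7.98%. The scaled ratio thus lay at the edge of the threshold, and both the unscaled and the scaled interval ran past it.

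**Figure D2:**
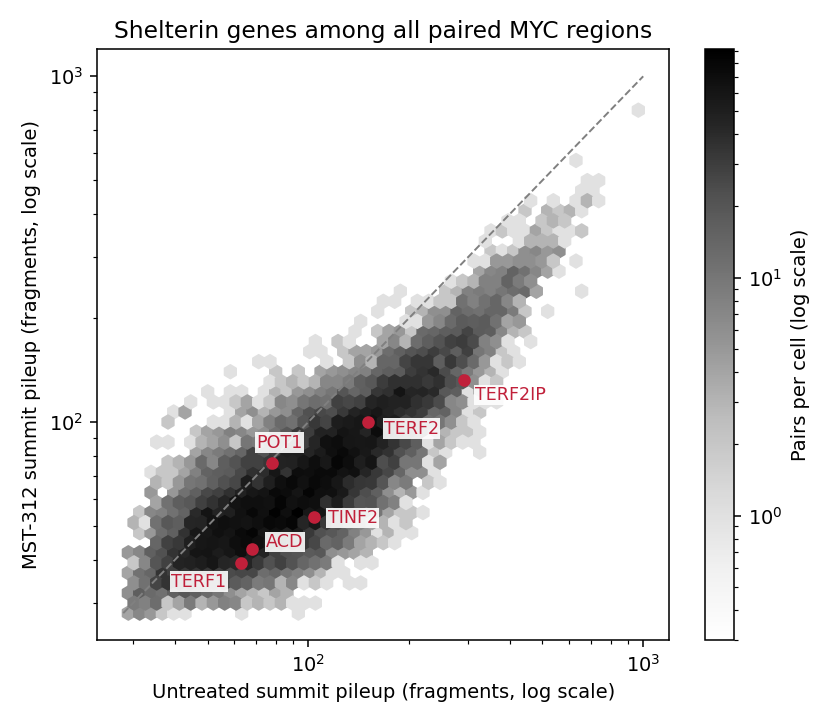
Summit pileup in the MST-312 list (vertical, log scale) against the untreated list (horizontal, log scale) for all 15265 pairs of single regions, grey by number of pairs, with the 6 shelterin genes in red and a dashed line of equality. POT1 (78 and 76) lies close to the line and TERF2IP (291 and 132) below most pairs of its untreated pileup.

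The ratio of a pair varied with its untreated pileup, so each gene was also set beside the pairs of like untreated pileup, after dividing all pairs into 10 equal parts by that value. TERF2IP was in the strongest part, where the median ratio was 0.575 and 12.4% of pairs had a lower ratio than its 0.454. TERF2 was in part 8 (137 to 169 fragments), whose median of 0.590 was below its own 0.662. TINF2 was in a part (99 to 116 fragments) with a median of 0.642, and 19.7% of those pairs had a lower ratio. POT1 was at the other side of its part (71 to 84 fragments, median 0.726), with 86.0% of pairs lower. ACD and TERF1 shared a part (60 to 71 fragments) with a median of 0.788, and 15.8% and 12.9% of its pairs had lower ratios than theirs. TERF2, ACD and TERF2IP are all on chromosome 16, where the 708 pairs had a median ratio of 0.660.

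**Figure D3:**
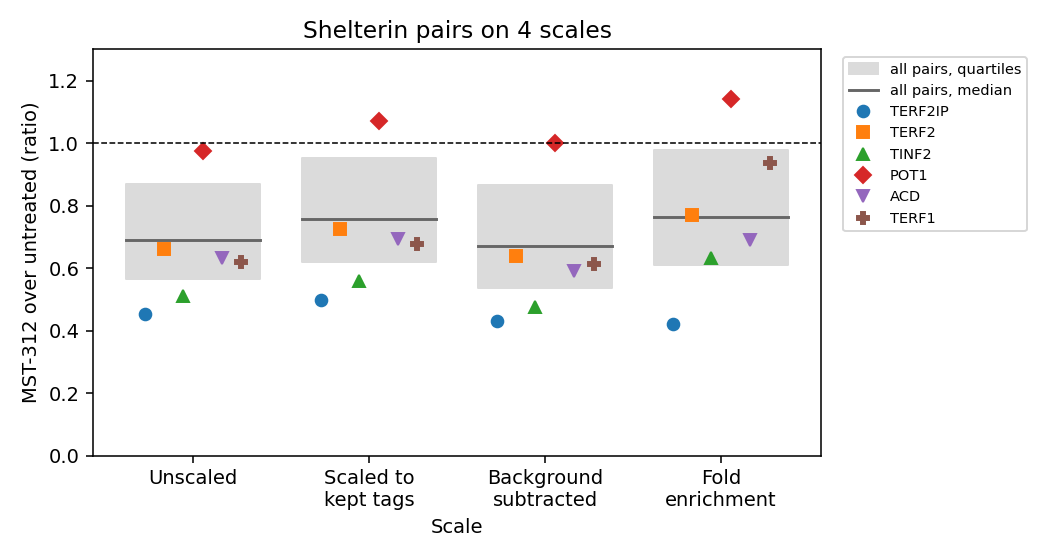
Ratio of the MST-312 to the untreated value (vertical axis) for the 6 shelterin genes on 4 scales, with grey bands for the quartiles and grey lines for the median of all 15265 pairs; the dashed line marks equality. POT1 is the highest on each scale and TERF2IP the lowest, from 0.974 and 0.454 for the unscaled pileup to 1.14 and 0.420 for the fold enrichment.

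Shelterin regions were narrower after MST-312 with the exception of TINF2. The widths in the untreated and MST-312 lists were 1276 and 718 bp at TERF2, 962 and 486 bp at POT1, and 1818 and 1210 bp at TERF2IP. They were 1224 and 946 bp at ACD and 792 and 671 bp at TERF1. TINF2 went the other way, with 1220 and 1407 bp. Narrower regions made up 5 of the 6 genes and 75.4% of all pairs, and the median width ratio was 0.719 for the genes and 0.832 for all pairs. At every gene but TINF2 the MST-312 region lay wholly inside the untreated one, covering from 50.5% of it (POT1) to 84.7% (TERF1). The share of all pairs nested in this way was not computed, so whether nesting is particular to these genes is not known. At POT1 this smaller width went with an almost equal pileup. The 2 TINF2 regions shared 996 bp.

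The edges did not move evenly around the start sites. For the 4 genes with a RefSeq strand, the region reached less far into the gene after MST-312 in each case. This reach was 1303 bp and then 765 bp at TERF2IP, 671 and 310 bp at POT1, 844 and 577 bp at ACD, and 695 and 471 bp at TINF2. Upstream of the start site the reach differed less at ACD (379 and 368 bp), TERF2IP (514 and 444 bp) and POT1 (290 and 175 bp), and at TINF2 it was longer, 524 and then 935 bp. At TERF2 the lower-coordinate edge moved from 1016 to 473 bp from the start site and the other from 259 to 244 bp. TERF1 kept both edges within 76 bp, at 195 and 119 bp on one side and 596 and 551 bp on the other. The same measure over all genes was not computed here.

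**Figure D4:**
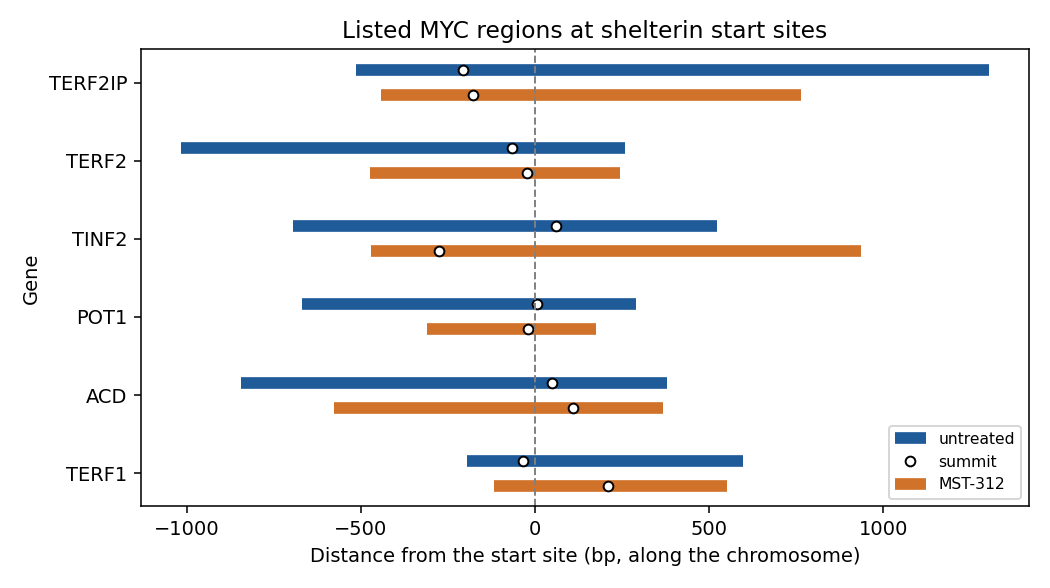
Extent of the listed MYC region (bars) and its summit (white circles) at each shelterin gene in the untreated (blue) and MST-312 (orange) list, as distance in bp from the start site along the chromosome. The TERF2IP bar ends 1303 bp above the start site in untreated cells and 765 bp after MST-312, and the TINF2 bar is the one that is longer after MST-312 (1220 and 1407 bp).

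Summits lay within 100 bp of each other at 4 of the 6 genes (POT1, TERF2IP, TERF2 and ACD), against 74.7% of all pairs. The median distance was 52 bp for the 6 genes and 46 bp for all pairs. The authors' fold enrichment was lower in the MST-312 list for 5 of 6 genes, against 77.1% of pairs, and these values belong to each list. At a stricter −log10 q of at least 26, 5 untreated shelterin regions remained (53.9% of the whole list did), with TERF1 left out at 23.4. In the MST-312 list 3 remained, TERF2IP (90.8), TERF2 (49.2) and POT1 (33.5), against 41.7% of that list. TINF2 (22.0), ACD and TERF1 were below this level but listed.

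The surroundings of the 6 start sites differed. POT1 and TERF1 stood alone, with the next untreated region 128 kb and 160 kb away and the next MST-312 region 191 kb and 285 kb away. ACD lay among several regions. On its upper side the untreated list held regions 5.89 kb and 8.21 kb away, with pileups of 72 and 48 fragments, that had no partner in the MST-312 list, where the next region on that side was 58.6 kb away. On its lower side a stronger region 15.7 kb away was listed in both, with 192 and 93 fragments. The first of the 2 upper regions was as strong in untreated cells as the ACD region itself (68), which kept its place in the MST-312 list. A region missing from a list may still carry signal below the listing level, so these 2 regions are described as not listed. Near TINF2 a region about 10 kb away was listed in both, with 92 and 66 fragments.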

How the data were processed

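The submitters' processing notes name CASAVA 1.8, Bowtie2 2.2.3 and the build hg19. Per the file headers, the authors called peaks in each library with MACS 2.0.10.20131216 against the same input, with 200 bp fragments, at most 3 duplicates per position, a p-value threshold of 0.05 and windows of 1000 and 10000 bp for the local background. The deposited pileup is a signal in fragments, unscaled because both MYC libraries kept fewer tags than the input (63069522). Fold enrichment, as deposited, is a ratio of pileup to local background, with 1 added to both. Strength was deposited as −log10 q, whose lowest listed values (13.01 untreated, 13.02 MST-312) lie far above the p-value threshold, and no header names the filter behind this.

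Start sites were hg19 positions given with the gene list. Local background was computed as (pileup + 1) / fold enrichment − 1. Partners shared at least 1 bp, and pairs are one-to-one overlaps. Pileup intervals are exact Poisson and ratio intervals exact binomial (Clopper-Pearson) from scipy 1.17.1, in Python 3.11.15 with pandas 2.3.3; figures used matplotlib 3.10.9. Pairing and ratios were tested on simulated data. All 6 genes are named by rule. The members and lists were chosen with earlier results of these data known, and the fold thresholds after the values were seen. Alternatives covered window, threshold, overlap, scaling and width. Counts for other telomere genes were planned and not run, since no hg19 annotation was used here.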

Additional observations from a re-analysis of the deposited data

How the results depend on the processing

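In all, 49 values were recomputed under another choice. Of these, 37 kept their side of 1 and stayed inside the counting interval of the ratio (for the median, that of the summed pileups) or within 1.5 times the count, 9 moved further, and 3, all for POT1, crossed to the other side of 1 inside its interval. Windows of 1, 2 and 10 kb, and any base of a region in place of its summit, left all 6 genes with a region in both lists; at 10 kb there were 9 untreated and 7 MST-312 regions. A −log10 q of at least 26 left 3 genes (3 regions) in the MST-312 list and 3 with partners in both lists, since the other MST-312 regions have lower listed values. The median ratio of 0.626 was 0.687 scaled to kept tags, 0.73 by fold enrichment and 0.602 after subtracting local background. The number of genes at least 1.5-fold lower (5) was 2 scaled to kept tags and 2 by fold enrichment, and 1 at the added threshold of 2-fold. The fold thresholds were set after the values were seen. The POT1 ratio of 0.974 changed side scaled to kept tags (1.07), by fold enrichment (1.14) and, at 1.00, after subtracting background; all lie inside its counting interval. Scaled to the median width of its own list, TERF1 was not narrower (1.01), which left 4 genes narrower. With 1 library per condition, no replicate could be left out. No paired analysis was possible because each condition is a single library. Depth limits the comparison most at TERF1 and ACD, with 39 and 43 fragments after MST-312.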
